A study of Homo sapiens with 2 samples.

Results

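The 10 genes described here are FOS, FOSB, JUN, JUNB, JUND, EGR1, ATF3 and IER2, which belong to the immediate early genes, and MYC and MYCN of the MYC family. They were chosen by name, and all 10 were found among the 62700 genes of the gene table, with 50 of their transcripts in the transcript table. Polyadenylated RNA had been sequenced from TCam-2, an established cell line from a human testicular tumour of the seminoma type, transduced to overexpress the RNA helicase gene DDX53. The series holds 1 group of 2 replicate libraries. Cells transduced with GFP and untransduced cells are named as controls by the study but were not analysed here, so no value below is an effect of DDX53. The labels do not say whether the replicates are separate cultures, and p-values therefore measure the difference between these 2 libraries only.

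Immediate early genes are switched on within minutes of a signal such as a growth factor or stress, by factors that already lie on their promoters, and their mRNAs usually decay fast. Proteins of the JUN and FOS families pair through leucine zippers into AP-1, a dimer that binds DNA. JUN proteins can pair with each other, whereas FOS proteins need a JUN partner. MYC, MYCN and MYCL are helix-loop-helix proteins that pair with MAX and drive growth genes, and MYCN is the form best known from embryonic and neural cells.

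Depth was 24137664 reads for the first replicate and 22198929 for the other. CPM, the read count scaled by depth, relates a gene's reads to these totals. Where no read was counted, the limit of 3 reads corresponds to 0.124 and 0.135 CPM, and intervals cover counting error only. DDX53 itself had 6.05 and 6.62 CPM, which does not check the labels, since no control library was set beside it. The 8 markers of germ cells and seminoma were all detected, with summed CPM of 4650 and 4611 in replicates 1 and 2. The leucocyte markers PTPRC and CD3E had no read. The 3 endothelial markers, 2 of them detected, summed to 5.39 and 7.75 CPM, and the 6 testis somatic markers, 3 of them detected, to 55.2 and 49.9 CPM. The 4 embryonal carcinoma markers, 3 of them detected, summed to 260 and 226 CPM. The 4 fibroblast markers summed to 465 and 435 CPM, with COL1A1 and COL1A2 detected, 424 to 455 CPM in COL1A2, and 1 read of DCN in each library.

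At least 1 CPM in both libraries was reached by 9 of the 10 genes, against 61.7% of 19831 protein-coding genes and 21.7% of all genes. FOSB was the exception. Levels between genes were compared as TPM, which is per transcript length, summed over a gene's transcripts. From the highest to the lowest mean, the order was JUND, IER2, MYCN, ATF3, MYC, EGR1, JUNB, FOS, JUN and FOSB. Of the 9 neighbouring pairs in this order, 7 were apart in both libraries. MYC and EGR1 were not, nor were EGR1 and JUNB, whose mean TPM were 8.95, 8.63 and 8.63. The order was the same when reads were divided by the length of merged exons. The median of the 10 genes was 8.79 TPM.

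**Figure D1:**
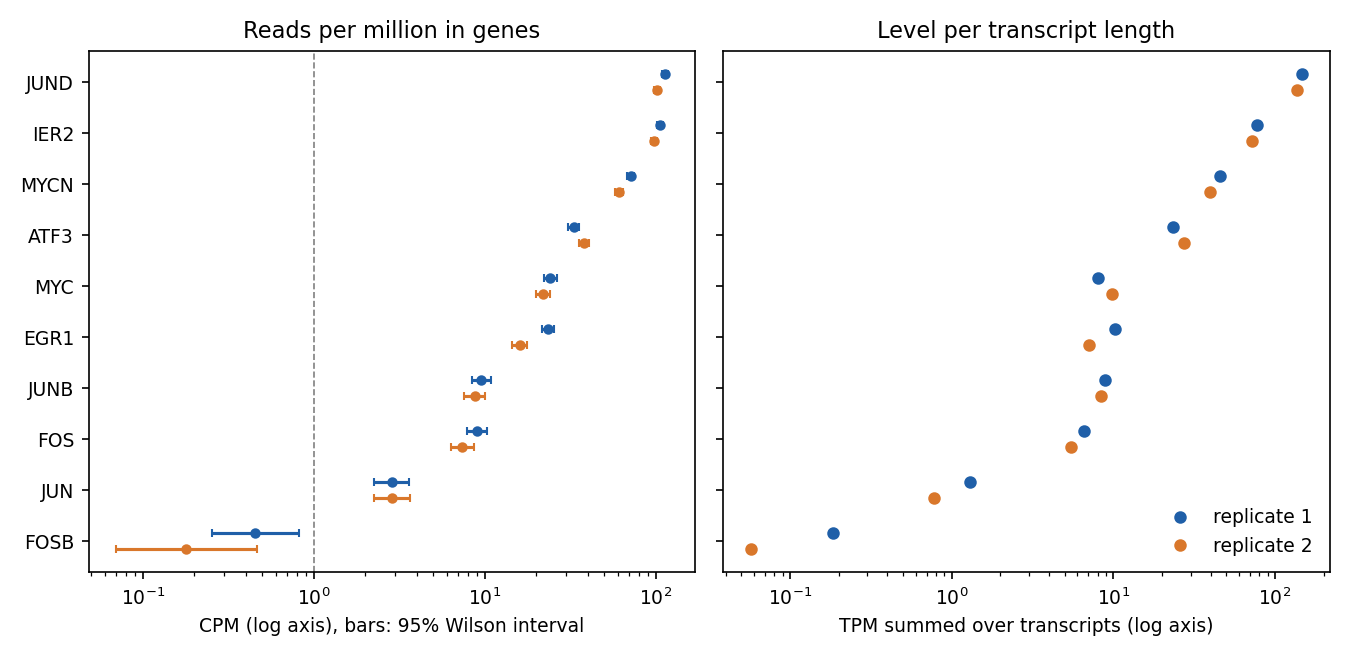
CPM with 95% Wilson intervals (left) and TPM (right) of each gene in replicate 1 (blue) and replicate 2 (orange), on log axes, with the genes sorted by mean TPM. JUND lies highest at 147 and 137 TPM, and FOSB lies below the dashed line of 1 CPM in both libraries.

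Within the JUN family, JUND carried nearly all of the RNA. JUND, a JUN protein that many cells make without stimulation, had 147 TPM in replicate 1 and 137 TPM in replicate 2, a mean of 142 ± 7.34 TPM (SD, n = 2). This was above 92.4% of the detected genes. JUNB, often described as the more inducible partner that restrains JUN, had 8.90 and 8.37 TPM. JUN, the founding member, had 1.29 and 0.775 TPM, and only 8.32% of the detected genes lay below it. The libraries did not overlap between any of these 3 genes. JUND thus held 93.5% of the family's TPM in replicate 1 and 93.7% in replicate 2, JUNB held 5.66% and 5.74%, and JUN held 0.822% and 0.531%. JUND exceeded JUNB 16.5-fold and 16.3-fold in the same libraries. In reads per length of merged exons the excess was 11.6-fold and 11.3-fold, and JUN held 1.21% and 1.36% of the family.

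The highest transcript of each of the 3 JUN genes had 1 exon. JUND-202, a minor JUND transcript with 2 exons, had 3.67 and 0.888 TPM. JUND lies on the minus strand of chromosome 19 from 18279760 to 18281622, JUNB on the plus strand of the same chromosome from 12791496 to 12793315, and JUN on the minus strand of chromosome 1 from 58780788 to 58784327. Of the 10 genes, 4 are on chromosome 19, since FOSB and IER2 lie there too. Part of the exons of JUNB, 259 bases or 14.2%, is shared with HOOK2 on the opposite strand, which had 339 and 385 reads. The library kit marks strand, but whether strand was used in counting is not given in the sources used here, so reads of such pairs may not be told apart.

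FOS family RNA was scarcer. FOS, the classic serum-induced AP-1 subunit on chromosome 14 from 75278774 to 75282230, had 217 reads in replicate 1 and 164 in replicate 2. These were 8.99 CPM (95% Wilson interval, 7.87 to 10.3) and 7.39 CPM (6.34 to 8.61), and the intervals overlapped. Per length FOS had 6.62 and 5.45 TPM. FOSB, on chromosome 19 from 45467995 to 45475179, received 11 reads in replicate 1 and 4 in replicate 2. That was 0.456 CPM (95% Wilson interval, 0.254 to 0.816) and 0.180 CPM (0.0701 to 0.463), so that no difference was detectable at this depth. Among the other FOS genes, FOSL1 had 2.21 and 1.89 TPM and FOSL2 had 1.59 and 1.67 TPM. FOS held 62.4% and 60.0% of the TPM of these 4 genes. From reads per length of merged exons it held 53.6% in replicate 1 and 48.7% in replicate 2. The JUN family summed to 152 ± 8.08 TPM and the FOS family to 9.84 ± 1.08 TPM (SD, n = 2 each), a ratio of 14.8 in replicate 1 and 16.1 in replicate 2.

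ATF3, a stress-induced AP-1 relative that can act as a repressor, was the most abundant of the listed AP-1 genes after JUND. It had 798 and 846 reads, or 33.1 CPM (95% Wilson interval, 30.8 to 35.4) in replicate 1 and 38.1 CPM (35.6 to 40.8) in replicate 2. Its TPM of 23.3 and 27.3 lay below those of MYCN in both libraries and above those of MYC. Of 8 further AP-1 partners, 6 were detected. JDP2, a repressive JUN partner related to ATF3, was the highest at 32.9 and 38.8 TPM, followed by ATF7 at 7.22 and 8.88 TPM and ATF2 at 6.62 and 6.71 TPM. BATF, a partner of JUN in lymphocytes, had no read.

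IER2, a small nuclear protein induced by growth factors, and EGR1, a zinc finger factor induced through the serum response factor, differed widely in level. IER2, on chromosome 19 from 13150415 to 13154908, had 2554 and 2162 reads and 77.7 and 72.4 TPM. Only JUND was higher among the 10 genes. In IER2, 946 bases or 30.8% of the exons are shared with an antisense gene, AC011446.2, that had 0 and 6 reads. EGR1, on chromosome 5 from 138465490 to 138469315, had 563 reads in replicate 1 and 355 in replicate 2. Its TPM were 10.2 and 7.04. The related genes EGR2 and EGR3 had 1 to 4 reads per library, and EGR4 had no read.

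MYCN, not MYC, was the higher of the 2 listed MYC genes. MYCN, on chromosome 2 from 15940564 to 15947007, had 1718 and 1354 reads, or 71.2 CPM (95% Wilson interval, 67.9 to 74.6) in replicate 1 and 61.0 CPM (57.8 to 64.3) in replicate 2. MYC, on chromosome 8 from 127735434 to 127741434, had 585 and 486 reads, or 24.2 CPM (95% Wilson interval, 22.3 to 26.3) and 21.9 CPM (20.0 to 23.9). Per length, MYCN had 45.5 and 39.6 TPM and MYC 8.05 and 9.85 TPM, so the libraries did not overlap. The ratio of MYC to MYCN TPM was 0.177 in replicate 1 and 0.248 in replicate 2, a mean of 0.213 ± 0.0506 (SD, n = 2). It was 0.303 ± 0.0113 from reads per length of merged exons.

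MYCL, the third member of the family, was as abundant per length as MYCN, with 44.3 and 40.3 TPM. MYCN held 46.5% and 44.2% of the family's TPM, MYCL 45.3% and 44.9%, and MYC 9.60% ± 1.94 (SD, n = 2). From reads per length of merged exons MYC held 14.9% ± 0.283 (SD, n = 2). On that scale the ratio of MYCL to MYCN was 0.713 and 0.750 rather than 0.973 and 1.02. The tables differed most for MYC, JUND and, in replicate 2, JUN and FOSB. Reads of MYC were 1.92 and 1.44 times the number its TPM and transcript lengths predict, and those of JUND were 0.629 and 0.593 times. For JUN, with few reads, the figures were 0.933 and 1.56, and for FOSB, with fewer still, 1.15 and 1.52. Transcripts absent from GENCODE 29 are left out of summed TPM, and their part in this was not tested. MYCNOS, transcribed from the opposite strand of MYCN and sharing 98 bases of exon, had 28 and 26 reads. PVT1, the noncoding neighbour of MYC, had 299 and 307 reads, 8.06 and 33.9 times its prediction, and its TPM is uncertain.

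The replicates were compared with each other next, the only comparison between samples that these libraries allow. A two-sided exact binomial test on the reads (edgeR, Benjamini-Hochberg adjustment over 15299 genes) called 13.1% of all tested genes, 6.78% higher and 6.35% lower in replicate 2. Of the 9 listed genes that were tested, 4 were called, 1 higher and 3 lower in replicate 2. FOSB had too few reads to be tested. The median log2 difference of the 9 genes was -0.13, with 7 below 0, and that of all tested genes was -0.00038. Log2 differences are of CPM + 1 after scaling, which understates the change of low genes. Genes with more reads are called more often, with 19.1% of 9389 tested genes at a mean of 10 CPM or more, where 4 of the 6 listed genes in that range were called. Some markers of cell types differed between the libraries too, and their part in these differences was not tested. DNMT3B, the 1 called of 4 tested embryonal carcinoma markers, had 124 and 98.4 CPM (edgeR exact binomial test, adjusted p of 4.2e-14). SOX9, the 1 called of 4 tested testis somatic markers, had 7.79 and 4.68 CPM. Of 2 tested fibroblast markers, COL1A2 was lower in replicate 2, while COL1A1, at 9.28 and 11.2 CPM, was not called. Of 2 tested endothelial markers, VWF was called, with 3.98 and 5.86 CPM. Of the 8 germ cell markers, POU5F1 was higher and LIN28A and PRDM1 were lower in replicate 2, and the others were not called.

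EGR1 was furthest apart among the tested members. It had 23.3 CPM in replicate 1 (95% Wilson interval, 21.5 to 25.3) and 16.0 CPM in replicate 2 (14.4 to 17.7), and the intervals were separate. The log2 difference was -0.51 (edgeR exact binomial test, adjusted p of 1.4e-06). Of 3324 tested genes with a mean of 10 to 30 CPM, 25 were at least this far apart. MYCN was lower in replicate 2 by a log2 difference of -0.21 (edgeR exact binomial test, adjusted p of 0.00082). JUND, at 113 and 101 CPM, had a log2 difference of -0.15 (adjusted p of 0.0024 by the same edgeR test). ATF3 moved the other way, with 0.21 (adjusted p of 0.026 by the same edgeR test). When genes with few reads were tested too, the adjusted p of ATF3 became 0.051.

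The other 5 tested genes were not called. IER2, at 106 and 97.4 CPM, had separate intervals but an adjusted p of 0.058 (edgeR exact binomial test), which became 0.039 when libraries were scaled by their totals alone. FOS had a log2 difference of -0.25, MYC of -0.13 and JUNB of -0.11, with edgeR adjusted p of 0.24, 0.35 and 0.68. JUN had 69 and 64 reads, or 2.86 and 2.88 CPM, and a log2 difference of 0.015. In TPM, JUN and MYC went the other way, with log2 differences of -0.37 and 0.26, so no direction is given for them.

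**Figure D2:**
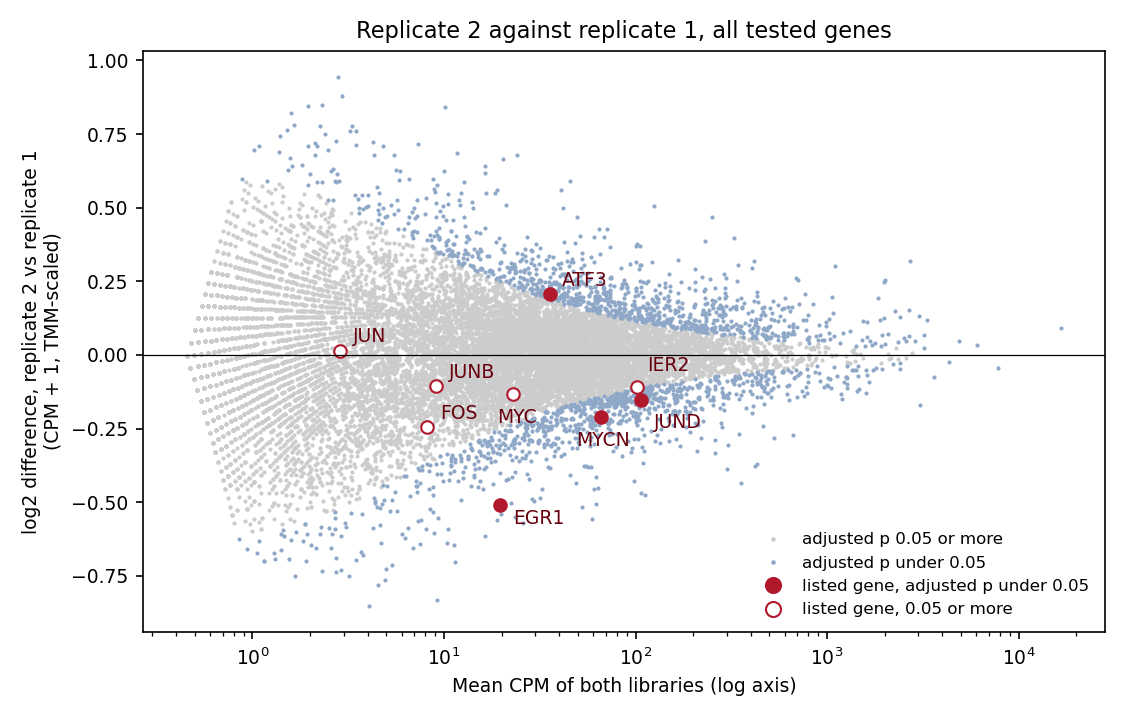
Log2 difference of replicate 2 against replicate 1 (vertical axis, CPM + 1) by mean CPM (log axis) for 15299 tested genes, grey where the adjusted p was 0.05 or more and blue where it was under 0.05. EGR1 lies at -0.51, MYCN, JUND and ATF3 are the other filled red points, and JUN, JUNB, FOS, MYC and IER2 are open.

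Promoters are shown to set the genes at the top, middle and bottom of the order beside each other, as the 5′ to 3′ sequence before the RefSeq start of each gene (GRCh38.p14). Capitals mark both serum response elements (CArG boxes) in EGR1, the cAMP response element TGACGTCA in JUND, TATAAA in JUNB and FOSB, and GC boxes (GGGCGG, or CCGCCC where it lies on the other strand) in JUND and FOSB.
EGR1, chr5:138465359-138465457, plus strand: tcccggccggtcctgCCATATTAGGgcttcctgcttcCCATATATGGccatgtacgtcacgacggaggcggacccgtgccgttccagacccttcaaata
JUND, chr19:18281723-18281837, minus strand: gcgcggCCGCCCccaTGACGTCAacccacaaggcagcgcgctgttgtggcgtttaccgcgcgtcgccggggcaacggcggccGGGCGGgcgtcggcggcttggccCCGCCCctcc
JUNB, chr19:12791436-12791485, plus strand: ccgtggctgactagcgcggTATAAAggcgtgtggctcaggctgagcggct
FOSB, chr19:45467921-45467995, plus strand: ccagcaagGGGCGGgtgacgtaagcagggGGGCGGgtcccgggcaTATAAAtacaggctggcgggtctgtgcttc

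The search covered 300 bases around the RefSeq start, both strands, and 9 of the 10 genes were in the promoter table. MYC was not in it, so none of these matches covers MYC. The serum response element was found in 1 of them, EGR1, at 105 and 83 bases before the start, and in 1.29% of 35116 promoters. TGACGTCA was found in JUND alone, 200 bases before the start, and in 1.85% of all promoters. TATAAA lay 33 bases before the start of FOS, 31 before JUNB and 30 before FOSB, and it was in 11.5% of all promoters. The fourth gene with TATAAA was ATF3, 230 bases before its downstream RefSeq start. GGGCGG occurred in 7 of the 9 genes and in 45.0% of all promoters. CACGTG, the E-box to which MYC and MAX bind, was in none of the 9 and in 7.26% of all promoters. TGANTCA, the AP-1 motif, was also in none and in 7.71% of all promoters. These matches describe the letters of this window only. The highest transcript of each of the 9 genes started within 54 bases of the RefSeq start, except in JUN and ATF3. For FOSB this was FOSB-203, which had 0 TPM in replicate 2. Only FOSB-212, which starts downstream at 45469876, had a value there. JUN-201 began 280 bases upstream of the RefSeq start, beyond the searched window. The JUN window thus lay inside that transcript, and its matches do not describe the promoter of JUN-201. ATF3-202 began at 212608670 on chromosome 1, 43.3 kb downstream of one RefSeq start and 6.35 kb upstream of the other, so neither ATF3 promoter in the table is that of ATF3-202. The minor transcript ATF3-204, with 0.370 and 0.209 TPM, began at 212615022, near the downstream RefSeq start at 212615018.

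A single transcript dominated most of the genes. EGR1, JUN and JUNB had 1 transcript each. JUND-201 held 97.5% and 99.4% of JUND TPM, ATF3-202 held 95.8% and 94.7% of ATF3 TPM, and IER2-201 held 90.8% and 88.8% of IER2 TPM. In ATF3 6 of 10 transcripts were at 0 in both libraries. MYC and MYCN were divided less stably between their transcripts. MYC-202 held 90.9% of MYC TPM in replicate 1 and 70.1% in replicate 2, and MYC-205 held 8.30% and 29.6%. MYCN-201 held 88.6% and 78.6% of MYCN TPM, with the rest in MYCN-202. FOS-201 held 83.7% and 73.0% of FOS TPM, while FOS-206, which starts within the gene, had 0.198 and 1.21 TPM. FOSB had a value above 0 in 2 transcripts of replicate 1 and in FOSB-212 of replicate 2, and they were different ones. The depth behind a transcript's TPM is unknown, so no interval is given, and with 2 libraries these shifts have no test.

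**Figure D3:**
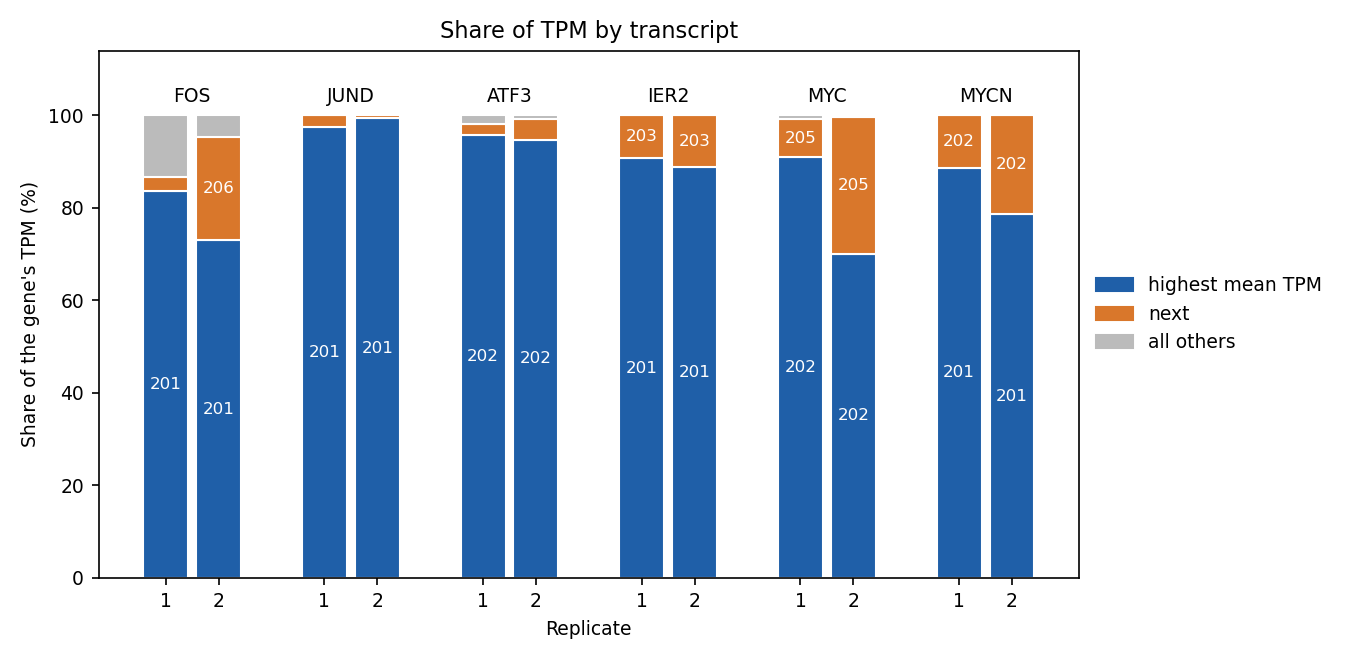
Share of each gene's TPM (vertical axis, %) by transcript in replicates 1 and 2, for the 6 detected genes with more than 1 transcript, with the end of the transcript name printed in the bars. The first transcript holds 94.7% or more in JUND and ATF3, and MYC-205 goes from 8.30% in replicate 1 to 29.6% in replicate 2.

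The 3′ ends were examined for AU-rich elements, since the ATTTA core is bound by decay factors such as ZFP36 in many short-lived mRNAs. In the 3′ UTR of the highest coding transcript, at least 1 ATTTA was present in 9 of the 10 genes, IER2 being without one. FOS had 5, MYC had 4, FOSB, JUN and ATF3 had 3 each, JUNB and MYCN had 2 each, and JUND and EGR1 had 1 each. In the last 400 bases of the transcript, 8 of the 10 genes held ATTTA, against 57.4% of 7652 other genes at 1 TPM or more in both libraries. The 10 genes were not held to that level: FOSB in both libraries and JUN in replicate 2 lay below 1 TPM. The longer TATTTAT was in that window in 4 of the 10 genes and in 14.4% of the others. The TATTTAT sites of the genes from the top and the bottom of the order are shown with their surroundings, 5′ to 3′ in the sense of the mRNA (GENCODE 29, GRCh38), with the motif in capitals.
JUND-201: tcgattctgcccTATTTATgtttctactcg
ATF3-202: gaaaatattactTATTTATcctagtattcc
FOS-201, first site: gtgtttttaattTATTTATtaagatggatt
FOS-201, next site: tggattctcagaTATTTATatttttatttt
JUN-201: tttgcttatgaaTATTTATaacagcattct
FOSB-203: ccattccttagcTATTTATccctttcctgg
JUND, highest in level, and JUN and FOSB, lowest in level, each hold 1 such site in these transcripts. ATF3 holds 1 and FOS 2, while IER2, MYCN, MYC, EGR1 and JUNB hold none. The FOSB site lies outside the last 400 bases, and FOSB-203 had 0 TPM in replicate 2.

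The genes around the 10 were described from lists of known function. Of 21 other immediate early genes, 16 were detected. SGK1, a kinase induced by serum and steroids, was the highest with 349 and 383 TPM, followed by MCL1, a survival factor of the BCL2 family, with 220 and 218 TPM, and KLF4, a pluripotency factor, with 81.8 and 78.5 TPM. Of the 16 tested, 8 were called between the libraries, 4 in each direction, against 13.1% of all tested genes and 19.1% of those at 10 CPM or more, and the median log2 difference was 0.019. SGK1, IER3, BTG2 and CCN1 were higher in replicate 2. PHLDA1, IER5, RHOB and NR4A1 were lower, PHLDA1 with 149 and 120 CPM and a log2 difference of -0.30 (edgeR exact binomial test, adjusted p of 3.0e-14). CCN1 had 27.9 and 34.6 CPM, a log2 difference of 0.31 (adjusted p of 0.00065 by the same edgeR test), but its TPM of 16.0 and 14.2 went the other way.

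Negative feedback genes were mostly present. Of 16 feedback regulators, 13 were detected, led by ZFP36L2 and ZFP36L1, which bind AU-rich elements, at 35.5 ± 1.40 and 25.3 ± 0.0221 TPM, and by SPRED2, an inhibitor of RAS signalling, at 30.8 ± 2.19 TPM (SD, n = 2 each). ZFP36 itself had 107 and 112 reads. Among phosphatases that switch off MAP kinases, DUSP5 was the highest with 16.9 and 15.4 TPM from 685 and 574 reads. DUSP1 had 152 and 146 reads and DUSP4 had 131 and 104. DUSP10 had 28 and 20 reads, DUSP6 had 22 and 23, and DUSP2 had none. Of the 15 tested, 2 were called, against 13.1% of all tested genes and 19.1% of those at 10 CPM or more. NAB1, a corepressor of EGR1, was higher in replicate 2 with 28.9 and 34.5 CPM (edgeR exact binomial test, adjusted p of 0.0072). SPRED2 was lower with 108 and 95.7 CPM (adjusted p of 0.0011 by the same edgeR test). The kinases and factors upstream of immediate early genes that were detected included MAP2K2, with 207 and 211 TPM, and MAPK3, with 68.6 and 70.0 TPM. Of the 15 upstream genes tested, 3 were called, against the same 13.1% and 19.1%, 1 higher and 2 lower in replicate 2. The 2 lower were ELK1 and ELK4, partners of the serum response factor, with log2 differences of -0.18 and -0.19.

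All 12 network partners of MYC were detected. After MYCL, the highest were MLX at 30.6 and 31.7 TPM and MAX, the obligate partner, at 28.1 and 22.5 TPM. MAX thus lay below MYCN in both libraries. Of the 12, 2 were called, against 13.1% of all tested genes and 19.1% of those at 10 CPM or more, and the other 10 were not called. These were MYCL and MGA, a large repressor that binds MAX. Both were lower in replicate 2, with log2 differences of -0.14 and -0.23 (edgeR exact binomial test, adjusted p of 0.013 and 0.00027). Of 7 genes that control the turnover of MYC proteins, 7 were detected. AURKA, a kinase that stabilises MYCN protein, was the highest with 133 ± 0.344 TPM (SD, n = 2), followed by the deubiquitinase USP28 at 96.5 ± 3.01 TPM and the ubiquitin ligase HUWE1 at 75.2 ± 20.6 TPM (SD, n = 2 each). HUWE1 was lower in replicate 2, with 477 and 365 CPM and a log2 difference of -0.38 (edgeR exact binomial test, adjusted p of 3.3e-70).

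All 20 MYC target genes were detected, with a median of 111 TPM. NPM1, a nucleolar chaperone, was the highest at 2617 ± 69.1 TPM, followed by the glycolytic enzyme ENO1 at 1706 ± 23.1 TPM and the chaperone HSPD1 at 945 ± 70.9 TPM (SD, n = 2 each). Of the 20, 4 were higher in replicate 2 and 6 were lower, against 13.1% of all tested genes and 19.1% of those at 10 CPM or more called in either direction, and the median log2 difference was -0.051. The 4 were LDHA, CDK4, TFRC and ODC1. The 6 were NPM1, ENO1, HSPD1, NCL, SRM and RRS1. In size, the called differences ran from -0.25 in RRS1 to 0.26 in ODC1. The 19.1% was not matched to the level of these genes, and small differences are called where reads are many. NPM1 and ENO1, at mean 2398 and 2206 CPM, were called at log2 differences of -0.049 and -0.032. The reads of NCL were 7.77 times and those of PPAN 0.0959 times their prediction in replicate 1, and their TPM are uncertain.

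**Figure D4:**
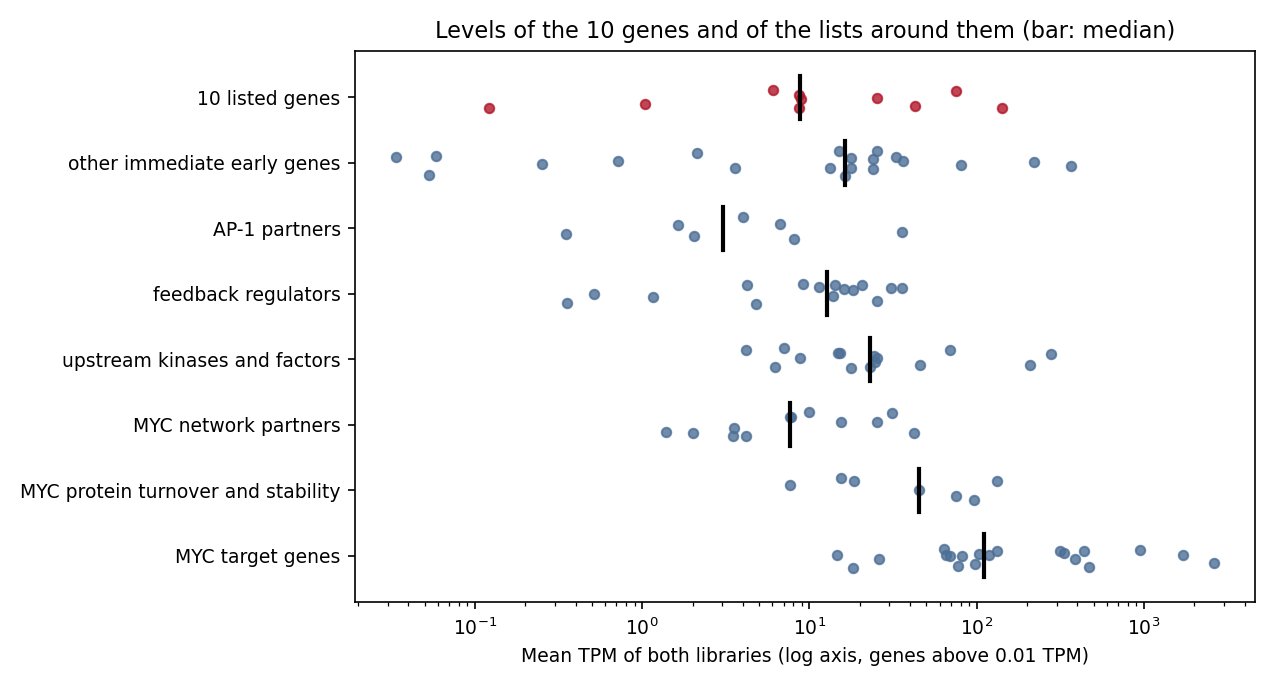
Mean TPM of both libraries (log axis) of the 10 genes (red) and of 7 lists of related genes (blue), 1 point per gene above 0.01 TPM, with a bar at the median of the whole list. The 10 genes spread from 0.121 TPM in FOSB to 142 TPM in JUND around a median of 8.79, and the MYC target genes have a median of 111.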

How the data were processed

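In all, 2 libraries were measured. The authors deposited TPM per transcript, made with salmon as the table's name says, and a gene table named CPM. In it, the deposited signal equals whole reads scaled by a constant of each library: 100% of values above 0 came out whole within 0.01 read, and reads were recovered. Salmon 1.10.2, STAR 2.7.11a, Trim Galore 0.6.10, DESeq2 and GRCh38 are named per the submitters' processing notes, without roles. Header names were matched to the value columns in order, since identifiers have no header. Of the value columns, 0 were unused.

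TPM were summed per gene through GENCODE 29, which held 201667 of 251955 transcripts and 94.8% of TPM. Reads were tested with edgeR 4.0.16 (binomTest, TMM, filterByExpr, adjusted p under 0.05) in place of the quasi-likelihood test, which needs replicates on each side, and the procedure was tested on simulated data. DESeq2 1.42.0 size factors, library totals, no filter, a pseudocount of 0.1, other thresholds and each library alone were alternatives. Predicted reads were TPM times transcript length. The 10 genes and lists were chosen with earlier results of these data known. Named besides the 10 were the 3 highest genes of each list, genes called between libraries and genes without a read. FOSL1, FOSL2, EGR2, EGR3, ZFP36, DUSP6, PPAN and other list members outside this rule, and the marker genes, were chosen after their values were seen. Some members of the lists that this rule names are not reported here.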

Additional observations from a re-analysis of the deposited data

How the results depend on the processing

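No paired analysis was possible because there is only 1 group of libraries. The number of the 10 genes detected was 9, and 8 to 10 under other thresholds, with TPM or with either library alone. The number called between the libraries was 4, and 3 to 5 under other scalings or without the filter, where IER2 was gained with library totals and ATF3 was lost without the filter. The order per length and the 7 pairs apart were the same with reads per length of merged exons and with coding transcripts only. The ratio of MYC to MYCN, 0.213 in TPM, was 0.303 with reads per length of merged exons and 0.177 to 0.248 with either library alone; the cause was not tested. With reads per length of merged exons, an alternative added after seeing the data, the share of JUN in its family was 1.28% against 0.677% and that of MYC was 14.9% against 9.60%. The order within the JUN family was the same, and MYC was lowest in its family on both scales. In TPM, MYCN lay above MYCL in replicate 1 (45.5 and 44.3) and below it in replicate 2 (39.6 and 40.3). Per length of merged exons, MYCN was higher in both libraries. With TPM summed per gene, the log2 difference of JUN became -0.37 and that of MYC became 0.26; the cause was not tested. The other 8 genes kept their direction there. Without the filter 1716 of 26504 genes were called, against 2008 of 15299. With library totals 46.0% of the called genes were higher in replicate 2, against 51.6%. Depth limits FOSB, with 11 and 4 reads, and the depth behind transcript shares is unknown. With 2 libraries of 1 group, no gene can be tested between conditions.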
